A study of Mus musculus with 5 samples.

Results

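The 10 genes of the transforming growth factor beta (TGF-beta) system described here are the ligand genes Tgfb1, Tgfb2 and Tgfb3, the receptor genes Tgfbr1, Tgfbr2 and Tgfbr3, and Ltbp1, Ltbp2, Ltbp3 and Ltbp4, which encode the latent TGF-beta binding proteins. They were chosen by gene symbol, out of 55357 genes in the table, and all 10 had enough reads to be tested. RNA came from mice at postnatal day 75, from back skin cells gated as hair follicle stem cells by high α6-integrin, CD34 and EpCAM and by the absence of Sca1. The Control group (2 libraries, replicates 1 and 3) had the genotype Ring1a-/-, Ring1bflox/flox. The PRC1 i2KO group (3 libraries, replicates 1, 2 and 3) had the same alleles together with K15-CrePR1, a Cre recombinase that works in cells with an active keratin 15 promoter and is switched on by RU-486. By their genotype labels both groups lacked Ring1a, and both were treated on the skin with 1% RU-486 daily for 10 days from day 50. The groups thus differ in the Cre transgene and, by design, in the loss of Ring1b that it is meant to bring about. Ring1a and Ring1b are the catalytic subunits of Polycomb repressive complex 1 (PRC1), which places ubiquitin on histone H2A. The labels do not say whether the libraries came from separate mice, so p-values reflect only the spread among these libraries, and that spread may be technical.

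TGF-beta ligands are made as precursors whose propeptide stays wrapped around the mature growth factor after cleavage and keeps it latent. The propeptide can be linked to a latent TGF-beta binding protein, which anchors the complex in the extracellular matrix until integrins, proteases or other factors set the ligand free. The free ligand binds the receptor encoded by Tgfbr2, which phosphorylates the receptor encoded by Tgfbr1, and that kinase phosphorylates Smad2 and Smad3. Betaglycan, encoded by Tgfbr3, presents ligand to these receptors. In hair follicles, TGF-beta2 from the dermal papilla is known to help resting stem cells enter a new growth phase, and TGF-beta signalling restrains the growth of many epithelial cells.

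The libraries held 8270419 to 32463173 estimated reads, and the members 116 (Tgfb2, Control replicate 1) to 34257 (Ltbp2, Control replicate 3). Levels are given as reads per 1e+06 (CPM) for 1 gene across libraries. For Rnf2, the gene of Ring1b, the Control mean was 62.8 ± 7.22 CPM (SD, n = 2) and that of PRC1 i2KO 48.3 ± 1.82 CPM (SD, n = 3). It fell by a log2 fold change of -0.37 (edgeR adjusted p = 0.0363). This does not check the deletion, since counts per gene do not tell which exons the reads came from. Ring1, the gene of Ring1a, which the labels give as deleted in both groups, had 189 to 885 reads a library, with 30.3 and 27.5 CPM in Control and 19.6, 28.6 and 24.8 CPM in PRC1 i2KO, so its reads do not check that deletion either. Of 6 bulge markers 5 fell, and their summed level in TPM, a length-corrected unit of transcripts, went from 15586 and 17634 in the controls to between 4154 and 6222 in PRC1 i2KO. Cd34, part of the sort, stood at 1194 and 1312 TPM in Control but at 7.73, 8.11 and 25.8 TPM in PRC1 i2KO, so that by RNA these libraries went against the CD34-positive gate. Of the other sort genes, Epcam rose, from 163.1 and 147.2 TPM to 387.8, 403.1 and 364.8 TPM. Itga6 was not called, at 225.9 and 251.4 TPM against 183.3, 194.6 and 180.3 TPM. Ly6a (Sca1) was not called either, at 0 and 1.43 TPM against 5.73, 1.46 and 5.18 TPM. All 4 markers of the upper follicle, all 5 of the sebaceous gland and all 4 of suprabasal epidermis rose, with sums of 204 to 250, 177 to 218 and 284 to 331 TPM in Control against 8007 to 8279, 1957 to 2430 and 700 to 1227 TPM in PRC1 i2KO. Of 5 melanocyte markers 1 rose, Dct, and their sum went from 6.36 and 5.21 TPM to between 22.9 and 24.7 TPM. Of 5 muscle markers 1 rose, Tagln, and their sum went from 1.46 and 0.91 TPM to between 7.58 and 13.9 TPM, with Myh11 and Des below 1 TPM in every library. Of 4 endothelial markers 1 was tested, Pecam1, and it was not called. The sum of the 4 was 0.88 and 0.63 TPM in Control and 0, 0.49 and 2.85 TPM in PRC1 i2KO replicates 1, 2 and 3. Among them Cdh5 and Tie1 had reads only in PRC1 i2KO replicate 3, with 18 and 12. These shifts accompany every result below and their part in it was not tested. In bulk RNA, fewer cells of a type and less RNA per cell cannot be told apart.

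In the PRC1 i2KO libraries ligand transcripts were higher, transcripts of all 4 binding proteins were lower, and the 3 receptor genes went different ways. Of the 10 members 8 were called, meaning that their Benjamini-Hochberg adjusted p in the quasi-likelihood test of edgeR was under 0.05. Of these, 3 rose (Tgfb1, Tgfb2 and Tgfbr3) and 5 fell (Tgfbr1 and the 4 Ltbp genes), while Tgfb3 and Tgfbr2 did not pass. Over all 15665 tested genes, 33.9% were called, 18.8% having risen and 15.1% having fallen, so the groups differed widely and a call alone sets no member apart. Without Control replicate 3, 1359 genes fell in place of 2371. In 9 of the 10 members the libraries of the groups did not overlap, Tgfbr2 being the exception, against 59.5% of all tested genes. The median log2 fold change was 1.25 over the ligands, 0.14 over the receptors and -0.95 over the binding proteins, beside -0.01 over all tested genes. With 1 library left out, the 8 called members kept their direction, and all but Tgfb2 and Ltbp1 stayed called.

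**Figure D1:**
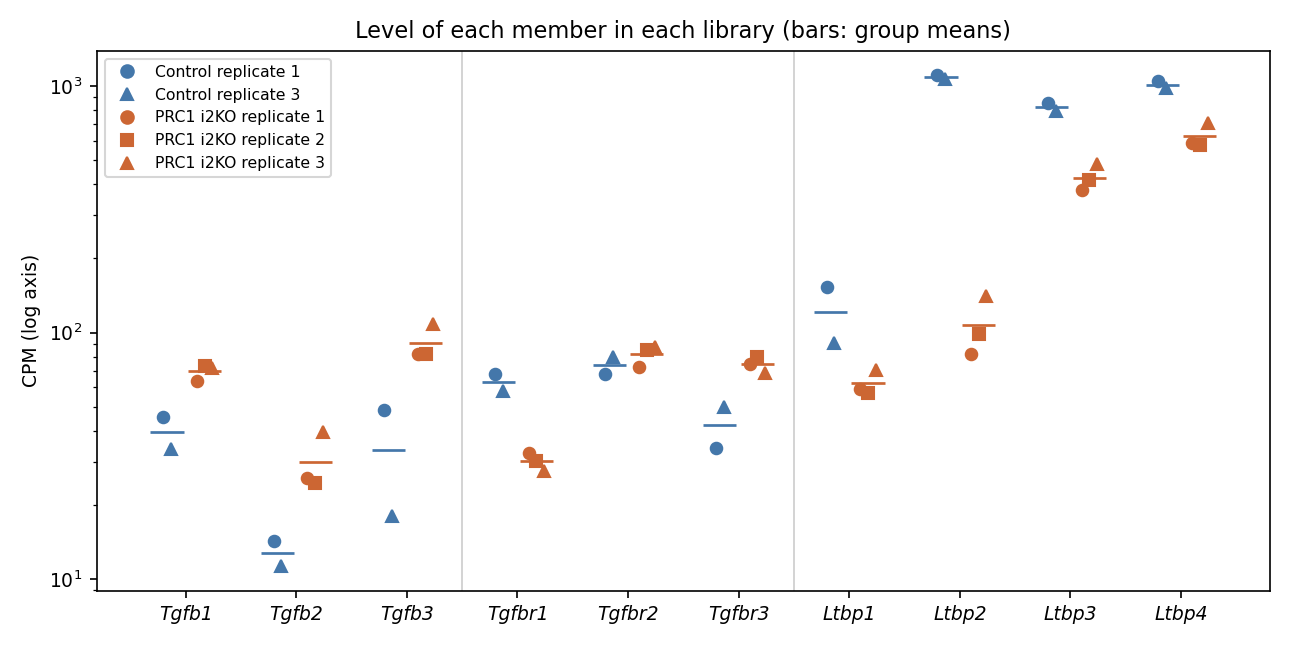
CPM of each member (log axis) in the 2 Control libraries (blue) and the 3 PRC1 i2KO libraries (orange), with symbols for the replicate number, horizontal bars for the group means and vertical lines between ligands, receptors and binding proteins. The orange points lie above the blue ones for the 3 ligands and Tgfbr3, below them for Tgfbr1 and the 4 Ltbp genes, and among them for Tgfbr2.

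**Figure D2:**
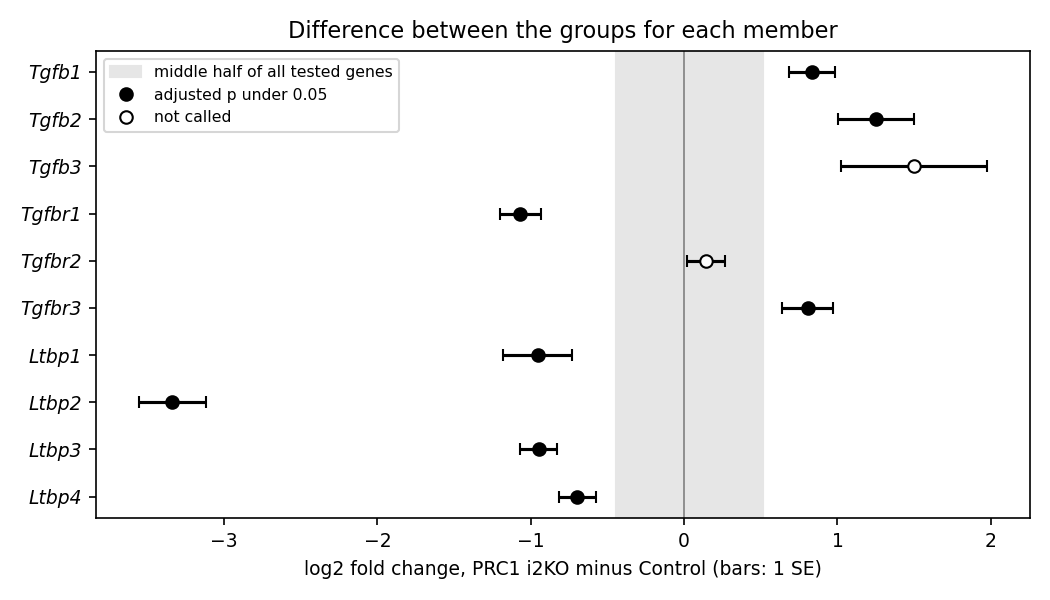
Log2 fold change of each member (PRC1 i2KO minus Control, bars of 1 SE), with filled points for an adjusted p under 0.05 and a grey band from the lower to the upper quartile of all tested genes, -0.45 to 0.52. Ltbp2 stands farthest from 0 at -3.34, and Tgfb3 is not called in spite of its log2 fold change of 1.50, with an SE of 0.48.

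Levels of different genes are set side by side in TPM, which takes transcript length into account. In Control, Ltbp4 (538 ± 4.17 TPM) and Ltbp3 (524.5 ± 31.4 TPM; SD, n = 2) overlapped at the top, each above 98.5% of tested genes, and Ltbp2 followed at 374 ± 10.5 TPM. The other members were far lower. Ltbp1 (39.5 ± 12.8 TPM) overlapped Tgfb1 (36.2 ± 5.45 TPM), and below them came Tgfbr2 (28.0 ± 3.15 TPM) and Tgfbr1 (21.6 ± 2.03 TPM). Tgfb3 (18.0 ± 11.6 TPM) overlapped the members on either side of it, Tgfbr1 above and Tgfbr3 (12.5 ± 3.64 TPM) below, and Tgfb2 was lowest at 4.87 ± 0.806 TPM. In PRC1 i2KO, Ltbp4 (304 ± 68.5 TPM) and Ltbp3 (239 ± 24.1 TPM; SD, n = 3) were still highest and overlapped. Tgfb1 (56.8 ± 7.96 TPM) and Tgfb3 (43.7 ± 8.47 TPM) came next, ahead of Ltbp2 (33.5 ± 10.4 TPM), and each of these overlapped its neighbour. Tgfbr2 (27.6 ± 3.32 TPM) overlapped Ltbp2, while Tgfbr3 (20.8 ± 1.61 TPM) and Ltbp1 (18.0 ± 2.33 TPM) overlapped each other. At the bottom Tgfb2 (11.5 ± 1.84 TPM) overlapped Tgfbr1 (9.20 ± 0.781 TPM), which thus went from the seventh place to the last.

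Summed over the 3 ligand genes, the level was 71.7 and 46.4 TPM in Control replicates 1 and 3 and 95.7, 113 and 127 TPM in PRC1 i2KO replicates 1, 2 and 3. Summed over the 4 Ltbp genes it was 1518 and 1434 TPM against 529, 542 and 712 TPM, so the mean of the sums was 2.48 times higher in Control. The receptor sums overlapped, at 58.7 and 65.4 TPM against 52.7, 60.3 and 59.8 TPM.

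Tgfb1 encodes the most widely expressed ligand of the family. Control replicates 1 and 3 held 45.3 and 33.7 CPM, and PRC1 i2KO replicates 1, 2 and 3 held 63.5, 73.3 and 71.9 CPM. Every PRC1 i2KO library was above both controls, and Tgfb1 rose 1.78-fold (log2 fold change 0.83, SE 0.15, edgeR adjusted p = 0.00207). Immune cells are known to express Tgfb1 strongly, and the sum of 6 immune markers was 45.1 and 32.0 TPM in Control and 99.9 to 145 TPM in PRC1 i2KO. Of those 6 markers 1 rose, Cd74, a gene of antigen presentation that epithelium can also express, with 35.9 and 29.6 TPM in Control and 95.5 to 140 TPM in PRC1 i2KO, while Ptprc and Cd3e were below 1 TPM in all 5 libraries and Lyz2 had no read. Cd207, a Langerhans cell gene, stood at 1.88 to 4.35 TPM in Control and at 1.51 to 4.87 TPM in PRC1 i2KO, and Tyrobp reached 4.26 TPM in Control replicate 1 and 2.32 TPM in PRC1 i2KO replicate 3, neither of them called.

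Tgfb2 encodes the ligand known for its part in the start of hair growth. Its 14.3 and 11.3 CPM in Control compare with 25.8, 24.5 and 39.7 CPM in PRC1 i2KO replicates 1, 2 and 3. PRC1 i2KO replicate 3 was highest, the groups did not overlap, and Tgfb2 rose 2.38-fold (log2 fold change 1.25, SE 0.25, edgeR adjusted p = 0.00393). Without Control replicate 3 the rise was just outside the threshold (adjusted p = 0.0503). Of 5 markers of dermal papilla cells, the known source of this ligand, Sox2 had no read and Corin, Rspo3 and Alx4 were below 1 TPM in every library; the sum of the 5 was 0.82 to 2.40 TPM in Control and 1.00 to 1.84 TPM in PRC1 i2KO.

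Tgfb3, which encodes the third ligand, stood at 48.6 and 18.1 CPM in Control and at 82.1, 81.7 and 108 CPM in PRC1 i2KO. The groups did not overlap, but the controls lay far apart, and the difference did not pass (log2 fold change 1.50, SE 0.48, edgeR adjusted p = 0.0766). DESeq2 called it (adjusted p = 0.0218), as did limma on log2(TPM + 1) (adjusted p = 0.0399). The size depended on which control was kept, with a log2 fold change of 2.33 without Control replicate 1 (adjusted p = 5.99e-05) and 0.90 without Control replicate 3 (adjusted p = 0.0133). Both of those fits take the spread of a single control from the PRC1 i2KO libraries.

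Tgfbr1 encodes the type I receptor, the kinase that acts on Smad2 and Smad3. It stood at 67.9 and 58.2 CPM in Control and at 32.3, 30.3 and 27.4 CPM in PRC1 i2KO. The PRC1 i2KO libraries lay close together below both controls, and Tgfbr1 fell 2.10-fold (log2 fold change -1.07, SE 0.13, edgeR adjusted p = 0.000246). It was called in each of the 16 other fits tried, with log2 fold changes from -1.22 to -0.96.

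Tgfbr2, the gene of the type II receptor that binds ligand first, stood at 67.8 and 79.8 CPM in Control and at 72.2, 85.1 and 87.7 CPM in PRC1 i2KO. The groups overlapped and no difference passed (log2 fold change 0.14, SE 0.12, edgeR adjusted p = 0.416). On the TPM scale its log2 fold change was -0.03 (limma adjusted p = 0.923). That scale moved the median of all genes to -0.15, and relative to it Tgfbr2 stood at 0.12.

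Tgfbr3, which encodes the coreceptor betaglycan, stood at 34.0 and 50.1 CPM in Control and at 74.9, 79.8 and 68.4 CPM in PRC1 i2KO. Every PRC1 i2KO library was above both controls, and Tgfbr3 rose 1.75-fold (log2 fold change 0.81, SE 0.16, edgeR adjusted p = 0.00476). The type I receptor thus fell while the coreceptor rose. Per library, Tgfbr3 reached 0.429 and 0.746 times the TPM of Tgfbr1 in Control but 1.92, 2.35 and 2.57 times in PRC1 i2KO, and Tgfbr2 went from 1.12 and 1.50 times to 2.41, 3.08 and 3.60 times the TPM of Tgfbr1.

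The 4 Ltbp genes moved in 1 direction by different amounts. Ltbp1 encodes a binding protein that carries latent TGF-beta to the matrix. It stood at 153 and 90.5 CPM in Control and at 59.0, 56.9 and 70.8 CPM in PRC1 i2KO. Control replicate 1 was well above the other 4 libraries, the groups did not overlap, and Ltbp1 fell 1.94-fold (log2 fold change -0.96, SE 0.22, edgeR adjusted p = 0.0176). The call was lost without PRC1 i2KO replicate 1, 2 or 3 (adjusted p = 0.0507, 0.056 and 0.0753), and the log2 fold change moved to -0.54 when Control replicate 1 was left out and to -1.30 when replicate 3 was.

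Ltbp2 encodes the family member that does not bind latent TGF-beta and is known for its part in elastic fibres and microfibrils. Control held 1107 and 1065 CPM of it, and PRC1 i2KO replicates 1, 2 and 3 held 82.0, 98.6 and 141 CPM. PRC1 i2KO replicate 3 held the most of the 3 yet was far below both controls, and Ltbp2 fell 10.1-fold (log2 fold change -3.34, SE 0.22, edgeR adjusted p = 5.41e-05). With any 1 library left out its log2 fold change lay between -3.58 and -3.17.

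Ltbp3 encodes a binding protein of latent TGF-beta known for its part in bone and teeth. It stood at 851 and 793 CPM in Control and at 378.5, 415 and 483 CPM in PRC1 i2KO, the groups did not overlap, and it fell 1.93-fold (log2 fold change -0.95, SE 0.12, edgeR adjusted p = 0.000282). Ltbp4, whose product binds latent TGF-beta1 and takes part in elastic fibre assembly, stood at 1048 and 979 CPM in Control and at 587, 578 and 712 CPM in PRC1 i2KO. It fell 1.62-fold (log2 fold change -0.70, SE 0.12, edgeR adjusted p = 0.00172). For both genes PRC1 i2KO replicate 3 was the highest of its group, as it was for Ltbp1 and Ltbp2.

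Fibroblasts are rich in binding proteins, so their markers were read beside these falls. Of 7 fibroblast markers 3 were tested and all 3 fell (Col1a1, Col1a2 and Pdgfra), and the sum of the 7 was 37.2 and 26.5 TPM in Control and 9.41 to 13.1 TPM in PRC1 i2KO. Col1a2 made up most of that sum, with 27.8 and 21.8 TPM in Control and 7.62, 8.7 and 8.56 TPM in PRC1 i2KO. Col3a1, Pdgfrb, Dpt and Lum were below 1 TPM in all 5 libraries. Matrix genes given below went both ways, with Fn1, Bgn, Dcn and Lox rising and Postn, Tnc, Mmp2 and Mmp14 falling. The part of fibroblast RNA in the falls of the Ltbp genes was not tested.

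Shares within a role do not depend on how libraries are scaled to each other. Among the Ltbp genes, Ltbp2 made up 25.1% and 25.6% of the summed TPM in Control and 4.74%, 5.60% and 6.33% in PRC1 i2KO, whereas Ltbp4 went from 35.6% and 37.3% to 51.2%, 47.6% and 53.7%. Ltbp3 held 36.0% and 35.0% in Control and 40.9%, 43.8% and 37.1% in PRC1 i2KO. Ltbp1 held 2.13% to 3.20% in all 5 libraries, with overlapping groups. Among the receptor genes, Tgfbr1 went from 39.2% and 30.8% to 18.7%, 15.6% and 14.0% and Tgfbr3 from 16.8% and 23.0% to 36.1%, 36.5% and 35.8%, while Tgfbr2 kept between 44.0% and 50.2% in all 5 libraries, with overlapping groups. Among the ligand genes, Tgfb1 held 55.8% and 69.7% in Control and 49.8%, 54.4% and 48.1% in PRC1 i2KO, and the shares of Tgfb3 overlapped. Tgfb2 remained the smallest part, at 7.59% and 9.27% against 9.82%, 11.1% and 9.94%, and in CPM its mean shares were 15.5% and 15.6%.

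**Figure D3:**
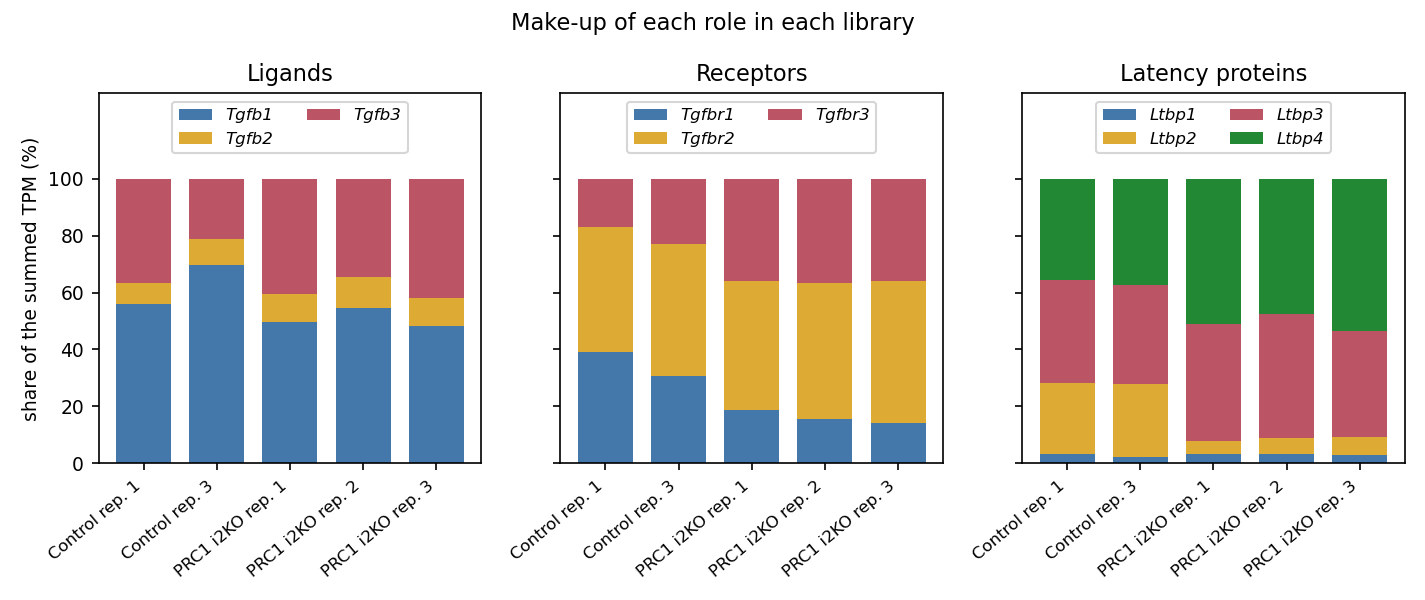
Share of the summed TPM (percent) that each gene took within the ligands, the receptors and the latent TGF-beta binding proteins, for each of the 5 libraries. The Ltbp2 segment shrinks from about 25.3% in Control to 5.56% in PRC1 i2KO on average, and the Tgfbr1 segment from 35.0% to 16.1%.

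PRC1 is known to gather at promoters rich in CpG dinucleotides. Promoters are therefore shown for the Ltbp gene with the largest fall, for the one with the fewest CpG and for the ligand gene with the largest called rise. Those of genes that fell and of a gene that rose can thus be set side by side. The sequences are the 250 bases before a listed start in RefSeq (build GRCm38.p6, which is not the build of the reads, mm39), where 8 of the 10 members matched and Tgfb3 and Tgfbr3 had no entry. Capitals mark matches on either strand to CAGAC, the core motif that SMAD proteins bind, and to TATAAA, the TATA box; the 2 motifs share no overlapping match here.
Ltbp2, chr12:84876492-84876741, minus strand: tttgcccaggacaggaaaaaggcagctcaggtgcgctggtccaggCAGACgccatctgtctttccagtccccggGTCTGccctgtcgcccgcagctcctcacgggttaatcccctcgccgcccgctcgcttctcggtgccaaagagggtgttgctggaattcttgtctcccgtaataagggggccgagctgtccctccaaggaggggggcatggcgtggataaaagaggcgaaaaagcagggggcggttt
Ltbp3, chr19:5740650-5740899, plus strand: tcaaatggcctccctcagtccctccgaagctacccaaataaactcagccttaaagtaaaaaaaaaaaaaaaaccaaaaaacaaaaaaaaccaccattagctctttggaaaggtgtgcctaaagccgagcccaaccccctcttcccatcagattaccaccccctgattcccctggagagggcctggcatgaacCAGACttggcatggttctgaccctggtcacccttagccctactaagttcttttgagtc
Tgfb2, chr1:186705990-186706239, minus strand: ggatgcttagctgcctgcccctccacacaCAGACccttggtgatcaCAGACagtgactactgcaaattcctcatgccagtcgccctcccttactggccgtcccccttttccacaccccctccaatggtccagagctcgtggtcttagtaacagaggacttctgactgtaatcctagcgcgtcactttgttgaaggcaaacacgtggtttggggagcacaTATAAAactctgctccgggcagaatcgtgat

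The SMAD core motif was found 2 times in the windows of Ltbp2 and Tgfb2 and 1 time in that of Ltbp3, and of the 8 matched members only Tgfb2 has the TATA box letters. Over all 32851 listed starts, 42.2% of windows of this length hold the former and 12.4% the latter, so the first is common. The number of CpG dinucleotides was 16 in Ltbp2, 2 in Ltbp3 and 8 in Tgfb2, beside a median of 6 over all windows. The other members differed as widely. The window of Tgfb1 held 21 CpG and no SMAD core motif, that of Tgfbr2 held 12 CpG and 1 such motif, and those of the 3 listed starts of Ltbp4 held 15 to 29 CpG and no such motif. Tgfbr1 had 29 CpG at one listed start and 3 at the other, and Ltbp1 had 12 and 7. In these windows the 4 Ltbp genes ranged from 2 CpG (Ltbp3) to 29 CpG (a start of Ltbp4). Bases after the start were not counted, and the relation of CpG to the changes in RNA was not tested.

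Genes with the most similar course over the 5 libraries were named for the member with the highest mean TPM in each role, by Pearson's r of log2 CPM among 13803 genes whose mean reached 1 CPM. With so many genes and 5 libraries, values near 1 arise easily, and the libraries share their group difference and depth. For Ltbp4 these were Zfp606 (r = 0.9999), Actn1, an actin crosslinker (r = 0.9994), and Tsga10 (r = 0.9993), each of which fell (log2 fold changes of -1.38, -1.11 and -1.31). For Tgfb1 they were Uchl5, Ech1 and Lonp1 (r from 0.9995 to 0.9999), and for Tgfbr2 they were Rnf7, Rrp15 and Celf2 (r from 0.9922 to 0.9985), none of the latter 3 being called.

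Most genes of the intracellular part of the pathway did not pass. Of 21 transducers and feedback genes, all tested, 2 rose, 3 fell and 16 did not pass (23.8% called, against 33.9% of all tested genes), with a median log2 fold change of -0.09. Tgif2, a corepressor that binds SMAD proteins, rose 4.37-fold (edgeR adjusted p = 0.000142), with 5.54 and 4.50 CPM in Control against 24.2, 22.8 and 17.9 CPM in PRC1 i2KO. Strap, a receptor-binding inhibitor of the pathway, rose 1.44-fold (log2 fold change 0.53, edgeR adjusted p = 0.00894). Bambi, a receptor decoy without a kinase domain, fell 1.90-fold, from 24.5 and 16.5 CPM to 9.33, 10.6 and 12.1 CPM (edgeR adjusted p = 0.0132). Smurf1, a ubiquitin ligase, and Zfyve9, which brings Smad2 and Smad3 to the receptor, fell 1.28-fold and 1.25-fold (edgeR adjusted p = 0.0231 and 0.0331). Strap, Bambi, Smurf1 and Zfyve9 all lost their calls without Control replicate 1 (adjusted p from 0.0855 to 0.173), so that none of this list fell in that fit. Without PRC1 i2KO replicate 1, and also without replicate 2, 1 of the list fell, since Smurf1 and Zfyve9 were then lost; Zfyve9 was lost without Control replicate 3 too. Without PRC1 i2KO replicate 3, 5 rose and 5 fell. Tgif1 and Fkbp1a, the most abundant genes without a call, stood at log2 fold changes of -0.09 and 0.20. The signal transducers themselves, named after their values were seen, had log2 fold changes of -0.22 for Smad2, -0.28 for Smad3 and 0.03 for Smad4, none called.

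Genes that release latent TGF-beta or hold it in the matrix went both ways. Of 24 such genes 20 were tested, of which 5 rose, 4 fell and 11 did not pass (45.0% called, against 33.9% of all tested genes). The median log2 fold change was 0.22, which is the same with Lrrc32 at its lower bound. Itgb6, the β6 chain of an integrin that frees TGF-beta1 and TGF-beta3 from their propeptides, fell 9.27-fold, from 82.7 and 87.6 CPM in Control to 9.54, 8.23 and 9.90 CPM in PRC1 i2KO (log2 fold change -3.21, SE 0.14, edgeR adjusted p = 6.06e-07). Its partner chain Itgav, named after its values were seen, fell 1.43-fold, from 216 and 202 CPM to 141, 169 and 129 CPM (edgeR adjusted p = 0.0106). Itgb8, also named after its values were seen, encodes the β chain of another integrin that releases the ligand. Its log2 fold change of 0.25 was not called (edgeR adjusted p = 0.301). The matrix protease genes Mmp14 and Mmp2 fell 2.08-fold and 2.56-fold (edgeR adjusted p = 0.000194 and 0.00131), though Mmp2 was not called on the TPM scale (log2 fold change -0.52, limma adjusted p = 0.274).

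Among the genes of this list that rose, Fn1, which encodes fibronectin, to which binding proteins attach in the matrix, went from 44.6 and 40.0 CPM to 259, 283 and 475 CPM, an 8.04-fold rise (edgeR adjusted p = 0.00136). Tgm2, a transglutaminase that crosslinks these complexes to the matrix, went from 0.988 and 3.27 CPM to 15.3, 16.8 and 11.2 CPM, a 6.06-fold rise (log2 fold change 2.60, edgeR adjusted p = 0.00168). Without Control replicate 3 its log2 fold change was 3.86, against the control with 8.03 reads. Lrrc32 encodes GARP, a membrane protein that holds latent TGF-beta at the surface of regulatory T cells and platelets. It had 0 reads in both controls and 109 over the 3 PRC1 i2KO libraries, at least 29.3-fold higher against a floor of 3 reads summed over the controls (0.0745 CPM). Lrrc32 had enough reads to be tested only through PRC1 i2KO, so a rise was the only call open to it. On unfiltered TPM it was not called (log2 fold change 0.96, limma adjusted p = 0.0594). Plau and Plaur, of the plasminogen activator system and named after their values were seen, rose 1.82-fold and 2.57-fold. Without Control replicate 3, and also without PRC1 i2KO replicate 2, 3 genes of the list rose in place of 5. Furin, the protease that cleaves the precursors, was not called (log2 fold change 0.20, edgeR adjusted p = 0.169). Thbs1, which encodes an activator of the latent complex, stood at 1376 and 659.5 CPM in the controls and at 1272, 1392 and 1087 CPM in PRC1 i2KO, with no call (log2 fold change 0.30, edgeR adjusted p = 0.541). Without Control replicate 1 it was called (log2 fold change 0.92, adjusted p = 0.00318).

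Of 21 other receptors, ligands and binding proteins 18 were tested, of which 3 rose, 4 fell and 11 did not pass (38.9% called, against 33.9% of all tested genes). The median log2 fold change was -0.19. Nrp2, which encodes a semaphorin and VEGF coreceptor that can also bind TGF-beta, went from 6.40 and 3.08 CPM to 159, 169 and 135 CPM, a 36.8-fold rise (log2 fold change 5.20, edgeR adjusted p = 4.45e-05), and its log2 fold change was 4.59 without Control replicate 3. Of 3 small matrix proteoglycans in the list that bind TGF-beta, Bgn and Dcn rose, while Fmod (fibromodulin), named after its values were seen, was not called (log2 fold change -1.09, edgeR adjusted p = 0.291). Bgn (biglycan) went from 11.1 and 3.80 CPM to 53.0, 57.5 and 24.5 CPM (log2 fold change 2.74, SE 0.67, edgeR adjusted p = 0.0365), a call lost without Control replicate 3 (log2 fold change 2.02, adjusted p = 0.112) or PRC1 i2KO replicate 2 (adjusted p = 0.0571). Without Control replicate 1 its log2 fold change was 3.56. Dcn (decorin), named after its values were seen, had 2 reads in Control and 83 in PRC1 i2KO, a ratio of 33.5 (exact 95% binomial interval 8.98 to 281, counting error only). Like Lrrc32, Dcn had enough reads to be tested only through PRC1 i2KO. Without Control replicate 3, and also without PRC1 i2KO replicate 2, 1 gene of the list rose. Acvrl1, another type I receptor gene, fell 2.49-fold (edgeR adjusted p = 0.00354). Fstl3, which encodes an activin antagonist, fell 1.88-fold (edgeR adjusted p = 0.000993). Cd109, a coreceptor that dampens TGF-beta signalling in keratinocytes, fell 1.51-fold, from 424.5 and 392 CPM to 273, 275 and 261 CPM (edgeR adjusted p = 0.00115), and the integrin β1 gene Itgb1 fell 1.46-fold. Fst and Acvr1b, the most abundant without a call, stood at log2 fold changes of -0.29 and 0.13.

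Genes often used as TGF-beta targets did not move in 1 direction. Of 27 targets 26 were tested, of which 6 rose, 8 fell and 12 did not pass (53.8% called, against 33.9% of all tested genes). The lists overlap, since Smad7, Skil, Pmepa1, Tgif1, Fn1, Thbs1 and Tmeff1 are also counted in the lists above. The median log2 fold change was 0.10. The 6 with the smallest adjusted p had all fallen. Postn (periostin) fell 10.9-fold and Tgfbi, named for its induction by TGF-beta, fell 3.64-fold, from 1523 and 1802 CPM to 403, 402 and 566 CPM (edgeR adjusted p = 5.53e-05 and 4.94e-05). The matricellular genes Ccn2 and Ccn1, also known as targets of YAP, fell 9.33-fold and 5.30-fold (edgeR adjusted p = 0.00013 and 0.00106). Their controls differed, with 3389 and 1990 CPM of Ccn2 and 2464 and 1285 CPM of Ccn1, and the call of Ccn1 was lost without PRC1 i2KO replicate 3 (adjusted p = 0.0513). Col1a2 and Tnc (tenascin C) fell 2.32-fold and 2.22-fold. Col1a2, like Col1a1, which is also among the targets that fell, is one of the fibroblast markers given above. Snai2, named after its values were seen, fell 1.98-fold, from 85.4 and 104 CPM to 39.1, 44.7 and 59.5 CPM (edgeR adjusted p = 0.00299).

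The targets that rose included Fn1, described above, and Cdkn2b, Tagln, Bhlhe40 and Lox, named after their values were seen, Tagln being also the muscle marker given above. Some of these rises began from few reads. Lox had 0 reads in Control and 65 in PRC1 i2KO, at least 17.5-fold higher against a floor of 3 reads summed over the controls. Like Lrrc32, Lox had enough reads to be tested only through PRC1 i2KO. Control replicates 1 and 3 held 4.42 and 19.56 reads of Tagln and 15 and 47 reads of Cdkn2b. Bhlhe40, which encodes a transcriptional repressor, went from 58.3 and 28.2 CPM to 624, 600 and 253 CPM (edgeR adjusted p = 0.0259). PRC1 i2KO replicate 3 was the lowest of its group, still above both controls. Cdkn2b, which encodes a cell cycle inhibitor, rose 2.67-fold (edgeR adjusted p = 0.0257). Without Control replicate 3, 2 targets rose in place of 6. The feedback targets Smad7, Skil and Pmepa1, likewise named after their values were seen, were not called, with log2 fold changes of -0.55, 0.49 and 0.97 (edgeR adjusted p = 0.0882, 0.0973 and 0.0564). Junb, the most abundant target without a call, stood at 1954 and 1066 CPM in the controls and at 2899, 2746 and 2286 CPM in PRC1 i2KO (log2 fold change 0.81, edgeR adjusted p = 0.0564). It was called by DESeq2 (adjusted p = 0.002) and without Control replicate 1 (adjusted p = 0.000489).

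**Figure D4:**
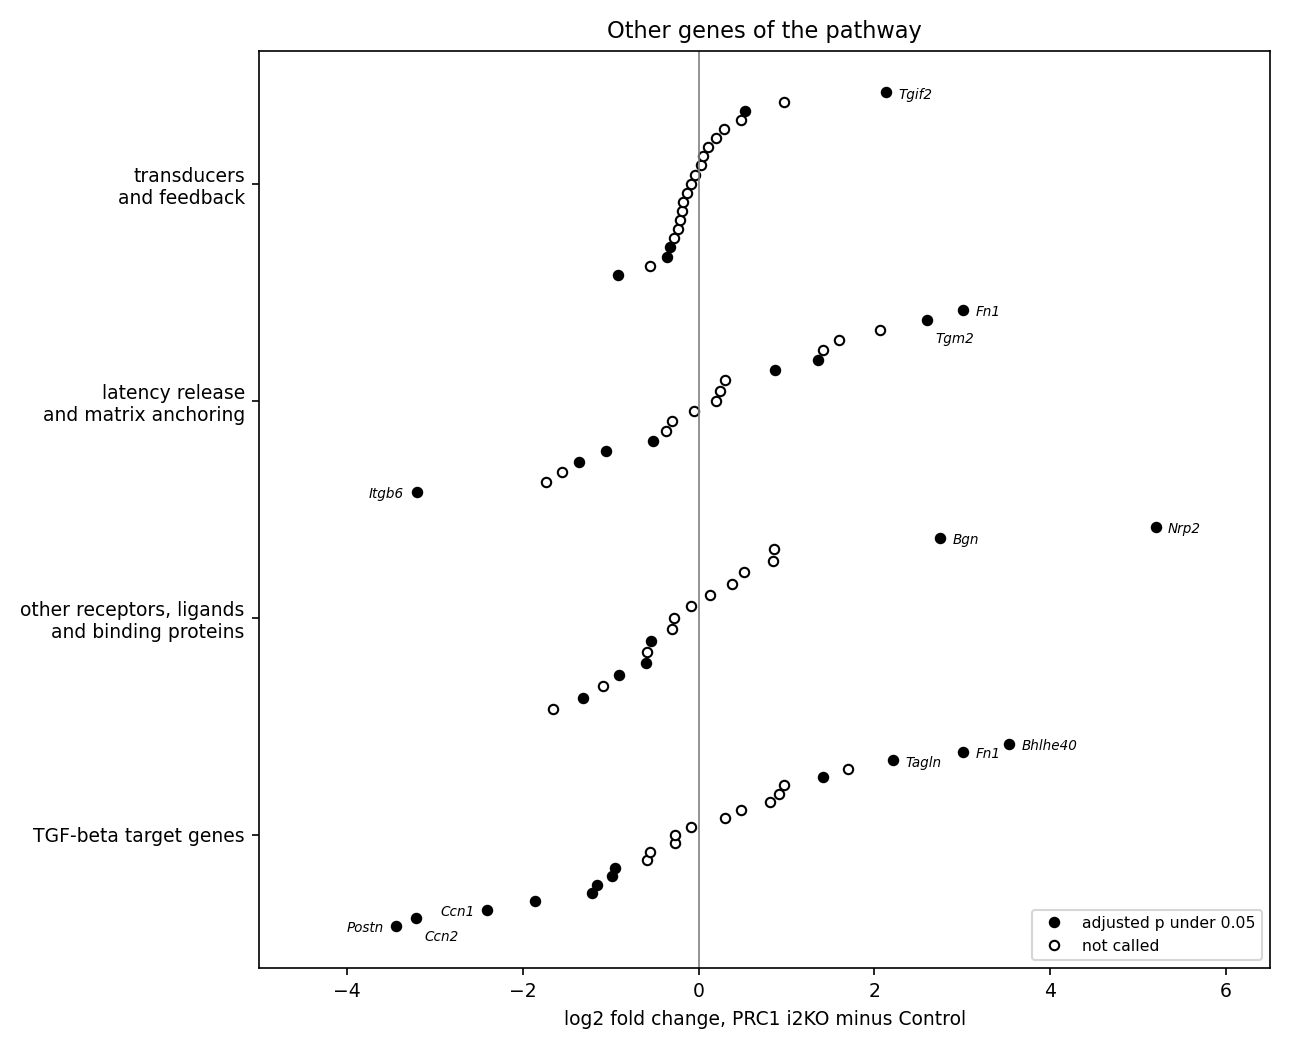
Log2 fold change (PRC1 i2KO minus Control) of tested genes in the 4 lists, sorted within each list, with filled points for an adjusted p under 0.05 and names for called genes beyond 2 in size; 4 genes with at most 3 reads in Control are left out. Most transducers lie close to 0, Itgb6 stands apart among the genes of latency release at -3.21, and the targets reach both ways.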

How the data were processed

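The authors deposited a table of expected counts (estimated reads, fractional in 9.06% of genes) and of TPM per library for 55357 genes. Per the submitters' processing notes the tools were RSEM 1.3.3, STAR 2.7.9a and DESeq2 1.38.2 and the build mm39, with no roles stated. Annotation and strandedness: not given in the sources used here. RSEM shares reads between similar genes, and Tgfbr3, Ltbp2 and Ltbp3 had fractional counts. The number of the second control, 3, is that of its title and column; its description has another.

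Expected counts were rounded and fitted with edgeR 4.0.16 (R 4.3.3) on all 5 libraries: filterByExpr, TMM factors (0.983 to 1.02), robust quasi-likelihood F test with genotype as the only term, Benjamini-Hochberg over 15665 genes, calls at 0.05. CPM uses the same scaling. The fit was also run on simulated counts with the same dispersion for every gene and few genes changed. That setting is simpler than these libraries, so the run does not give the error rate here. Alternatives used DESeq2 1.42.0, other scalings and filters, limma 3.58.1 on log2 of the deposited TPM with a pseudocount of 1 or 0.1, fewer libraries and a replicate block. Libraries of a group differed beyond sampling noise (chi-square over its degrees of freedom 10.3 to 43.1), so none was merged.

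The members and gene lists were chosen with earlier results of these data known. The rule for named genes took all members and, from each list, up to 6 called genes by adjusted p and the 2 most abundant not called, besides the sort genes and the genes most like the leading member of each role. In addition, 1 gene of the target list is included in the counts of that list but is not reported or plotted here. Counting error sets the precision of low genes, and PCR duplicates cannot be told from separate molecules.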

Additional observations from a re-analysis of the deposited data

How the results depend on the processing

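The 10 members gave 160 values under 16 alternatives to the reported fit, of which 141 kept direction and call. Tgfbr1, Ltbp2 and Ltbp3 kept both in every alternative. The 3 libraries with the most counts, which leave 1 control, took the calls of Tgfbr3 (0.58), Ltbp1 (-0.49) and Ltbp4 (-0.59, log2 fold changes) and raised Tgfb3 to 2.40; there 3 members fell, and 1736 genes rose and 1009 fell in all. On unfiltered TPM, Tgfb1 (0.63) and Tgfbr3 (0.72) were not called and 1 member rose. On TPM, Tgfbr2 stood at -0.03 and Tgfb3, called with a pseudocount of 1 or 0.1, at 1.37 and 1.42; DESeq2 called Tgfb3 at 1.45. On TPM 1721, 1734 and 1410 genes rose (pseudocount 1, 0.1 and unfiltered), 45.0% of calls in place of 55.3% for the first. With 1 library left out, log2 fold changes ran from 1.00 to 1.41 for Tgfb2, from 0.90 to 2.33 for Tgfb3 and from -1.30 to -0.54 for Ltbp1, and genes that fell overall numbered from 1359 to 2757. Same-numbered libraries deviated together only weakly (r = 0.0737 and 0.115 by title), which does not show that the numbers pair them; with the replicate number as a block by title 4421 genes were called in place of 5310, and Ltbp1 stood at -0.85 (adjusted p = 0.0882). By description the r values were 0.0737 and -0.0432, the replicate block called 5314 genes, and Ltbp1 stood at -1.01 (adjusted p = 0.00672).

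Of the transducers, 4 rose with no filter, 1 on each TPM fit, and 4 and 5 with the replicate block by title or description; 0 fell on each TPM fit (by edgeR 3 fell) and in the 3 deepest libraries. Leaving out 1 library gave from 2 to 5 that rose and 0 to 5 that fell. Of the latency genes 2 rose on each TPM fit and 3 with the replicate block by title, and from 3 to 5 with 1 library left out; of the other receptors 2 fell in the 3 deepest libraries and 1 to 3 rose with 1 left out, as did 2 to 8 targets. Of 30 other genes named from the lists, 10 of 477 values turned direction, all without a call: Tgif1 (0.01 without Control replicate 1, range -0.19 to 0.01), Thbs1 (-0.14 without Control replicate 3, range -0.14 to 0.92), Fst (0.14 without Control replicate 1, range -0.62 to 0.14, and 0.23 in the 3 deepest), and Furin (-0.01) and Acvr1b (-0.03) on TPM. Shares within a role in CPM, which ignores length, in Control and PRC1 i2KO were 47.6% and 36.9% for Tgfb1, 15.5% and 15.6% for Tgfb2, 41.2% and 43.9% for Tgfbr2, 3.96% and 5.11% for Ltbp1, 35.7% and 8.67% for Ltbp2 and 27.0% and 34.9% for Ltbp3. They were 33.3% for Ltbp4 in Control and 47.6% and 40.0% for Tgfb3 and Tgfbr3 in PRC1 i2KO. The causes of these changes were not tested.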

Other observations

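TPM divides reads by an expected transcript length that depends on which isoforms the reads are assigned to, so the ratio of reads to TPM gives that length relative to the other libraries. Its highest over its lowest value was 1.01 for Tgfb3 and Ltbp2, 1.03 for Tgfbr2, 1.05 for Tgfbr1, 1.06 for Ltbp1, 1.09 for Ltbp3, 1.12 for Tgfb1, 1.16 for Ltbp4 and 1.18 for Tgfbr3, beside a median of 1.16 over 8408 genes with at least 100 reads in each library. Tgfb2 stood apart among the members at 1.65, a spread larger than that of 93.1% of these genes. Its relative length was 1.08 and 1.09 in Control and 0.998, 0.719 and 1.19 in PRC1 i2KO replicates 1, 2 and 3. PRC1 i2KO replicates 2 and 3 stood at 24.5 and 39.7 CPM but at 12.5 and 12.7 TPM. The rise of Tgfb2 was called on either scale (log2 fold change 1.25 in edgeR and 1.09 on log2(TPM + 1), limma adjusted p = 0.0177). This was looked at after the values were seen, and isoform levels were not analysed here.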
